A study of Homo sapiens with 6 samples.

Results

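The cytochrome P450 genes of the human colon carcinoma line HCT116 were described and compared between wild-type cells and cells in which BRCA2 had been knocked out. Members were taken by symbol alone, as probe sets annotated with 1 gene symbol that begins with CYP and a digit, without pseudogenes. This gave 32 genes out of 13139 genes with such a probe set. They were 31 protein-coding P450 genes and CYP1B1-AS1, an antisense RNA gene that the symbol rule takes in. CYP2R1 had more than 1 probe set and was represented by the brighter. A further 11 probe sets carried a P450 symbol among several symbols and belong to no single gene. The wild-type cells came from a cell repository, and both BRCA2 alleles of the knockout cells had been disrupted in turn by homologous recombination. The labels do not say how many knockout clones were used. Both genotypes were grown in the same serum-containing medium, and neither received a treatment. Each genotype was measured on 3 whole-transcript arrays that the labels call technical replicates, so the p-values measure the spread between arrays. BRCA2 was not analysed here.

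Cytochromes P450 are haem enzymes that insert an oxygen atom into lipophilic substrates, with electrons from NADPH passed on by the reductase POR or, in mitochondria, by ferredoxin. Some clear drugs and carcinogens and are led by the liver and the gut wall. Others make or break down steroid hormones, bile acids, vitamin D, retinoic acid and signalling products of fatty acids. In the intestine they form part of the barrier to ingested chemicals, and their transcription is set by ligand-activated factors such as AHR and the nuclear receptors.

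The arrays of a genotype were not alike. The median log2 value over all 19458 probe sets was 7.71 on wild-type array 1 and 7.80 on knockout array 2, against 7.36 to 7.48 on the other 4 arrays. Over all probe sets, knockout array 2 correlated with wild-type array 1 (r = 0.924) more closely than with knockout arrays 1 and 3 (r = 0.876 and 0.893). Probe sets are not independent replicates. In 24 of the 32 members (75%) these 2 arrays lay on the same side of the other arrays of their genotypes, above them in 10 and below them in 14. Over all probe sets the share was 77.8%, but there the split ran the other way, with 10122 above and 5020 below of 19458. Of 14 measured colon epithelial markers, 6 were above the reference level described next on all wild-type arrays, among them EPCAM, CDH1, KRT8 and CDX2. VIL1, KRT20, CDH17 and CEACAM5, markers of differentiated colonocytes, were not above it in either genotype, nor were CDX1, LGALS4 and GPA33. Of 14 hepatocyte markers, 2 were above it in the wild type, as were 1 of 6 markers of steroid-forming cells, 2 of 10 of fibroblasts and endothelium, and 1 of 7 of lymphocytes and myeloid cells. The share of all genes above it in the wild type was 48.7%, so no cell identity is read from these counts.

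Few members stood clear of a reference set by olfactory receptor genes in these cells. The value table has no detection calls, so the reference was the 95th percentile reached on the same array by 89 olfactory receptor genes, which are mostly silent outside the nose. It lay between 6.05 and 7.38 over the 6 arrays, where the array medians of all probe sets were 7.36 to 7.80. On wild-type array 2 the reference lay above that median, so it is not a low level. Probes differ in affinity, so a gene below the reference is not shown to be silent, and no order of levels between genes is read. In wild-type cells 5 of 32 members (15.6%) exceeded the reference on all 3 arrays, against 48.7% of all genes. They were CYP24A1, CYP27B1 and CYP2R1 of vitamin D metabolism, the oxysterol hydroxylase gene CYP7B1 and the steroid hydroxylase gene CYP17A1. In knockout cells 9 members (28.1%) did so, against 60.1% of all genes. These were the same 5 together with CYP26B1, CYP2S1, CYP2W1 and CYP4F12. Thus 4 of 32 members passed in the knockout alone, as did 12.7% of all genes. Wild-type array 2 had the highest reference, 7.38. CYP26B1 (7.00), CYP2S1 (7.34) and CYP2W1 (6.77) missed the wild-type reference on that array alone, while CYP4F12 was under it on every wild-type array. Without wild-type array 2, 11 members passed in the wild type, and no share of all genes is given for this count. Against the 75th percentile of the olfactory receptor genes, 18 members (56.2%) passed in the wild type and 17 (53.1%) in the knockout, where all genes gave 78.5% and 76.3%. None of the 6 measured xenobiotic P450 genes, CYP1A1, CYP1A2, CYP1B1, CYP2E1, CYP3A5 and CYP3A43, exceeded the 95th percentile on all 3 arrays of either genotype. Some probe sets with several symbols, which are no members, did so in both genotypes. They carry CYP2D7 and CYP2D6, CYP51A1 and LRRD1, CYP4F11 and IPMK, and, for 1 of its probe sets, CYP11B1 and CYP11B2. The other shared probe sets did so in neither genotype. Which annotated gene gave these signals was not tested.

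**Figure D1:**
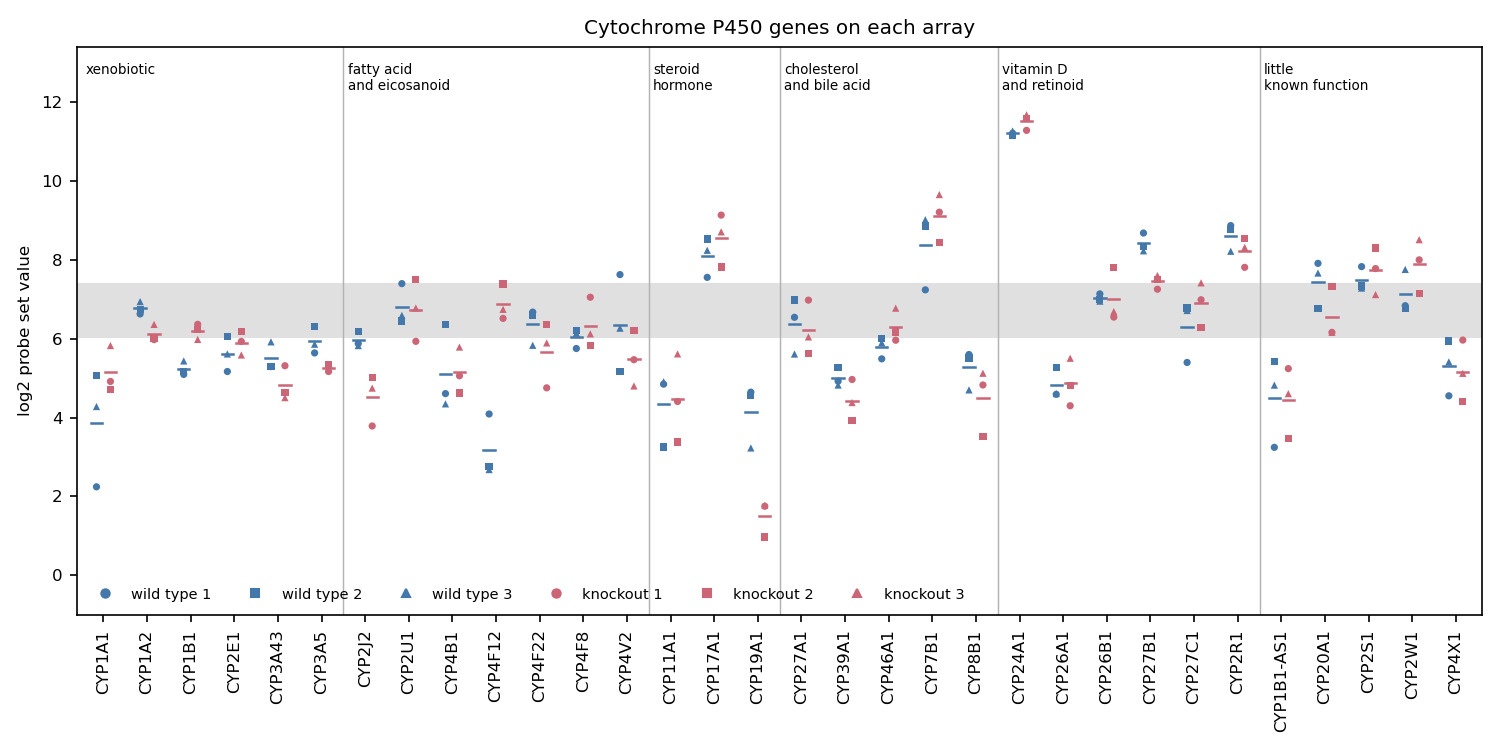
Log2 probe set value (y axis) of each of the 32 members (x axis, ordered by class) on 3 wild-type arrays (blue) and 3 knockout arrays (red), with short lines at the genotype means; the grey band spans the reference, 6.05 to 7.38. CYP24A1 lies at 11.15 to 11.68 on all arrays, while CYP4F12 and CYP19A1 show the widest separation of the genotypes.

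The comparison of the genotypes asked which P450 transcripts differ between the knockout and the wild-type cells. With technical replicates only, the absence of BRCA2 cannot be told apart from other differences between the repository cells and the targeted cells. CYP4F12, an enzyme of fatty acids and of some antihistamine drugs, rose in the knockout, and no other member passed the test. That is 1 of 32 at an adjusted p under 0.05 in limma, where 0.57% of all probe sets passed, 0.416% as higher and 0.154% as lower. At an unadjusted p under 0.05 there were 7 members (21.9%), against 12.2% of all probe sets. Of these, 2 were higher, where all probe sets gave 6.92%, and 5 lower, where they gave 5.28%. For 8 members (25%) the values of one genotype all lay above those of the other, against 19.7% of all probe sets. Among those 8, CYP4F12, CYP1B1 and CYP24A1 were higher (9.38%, against 12% of all probe sets) and CYP19A1, CYP2J2, CYP27B1, CYP1A2 and CYP3A5 lower (15.6%, against 7.7%). Over all members 15 differences were positive and 17 negative, with a median of -0.04, where the median over all probe sets was 0.02. Over all genes, with 1 probe set each, the median was 0.07 and 13.5% were at an unadjusted p under 0.05 in limma. Of all genes 21.2% did not overlap, 14.1% higher and 7.08% lower. The SD over the arrays of a genotype had a median of 0.56 in the members and 0.42 over all probe sets. Without wild-type array 1 and knockout array 2 no member was called, 7 were at an unadjusted p under 0.05, and 14 did not overlap. Leaving out 1 array moved the difference by over 1.5 times, or turned it, in 22 of the 32 members. It did neither in 10, among them CYP4F12 and the other 6 at an unadjusted p under 0.05. A small p already requires a difference that is large against the spread of these same arrays, so this is no separate support. The number without overlap was also 14 without knockout array 2 alone and 13 without wild-type array 2. No share over all probe sets is given beside the counts with arrays left out. With fewer arrays, lack of overlap is more frequent by chance, so no rise from 8 is read. In bulk RNA of a cultured line, fewer cells that express a gene and less of its RNA per cell cannot be told apart.

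**Figure D2:**
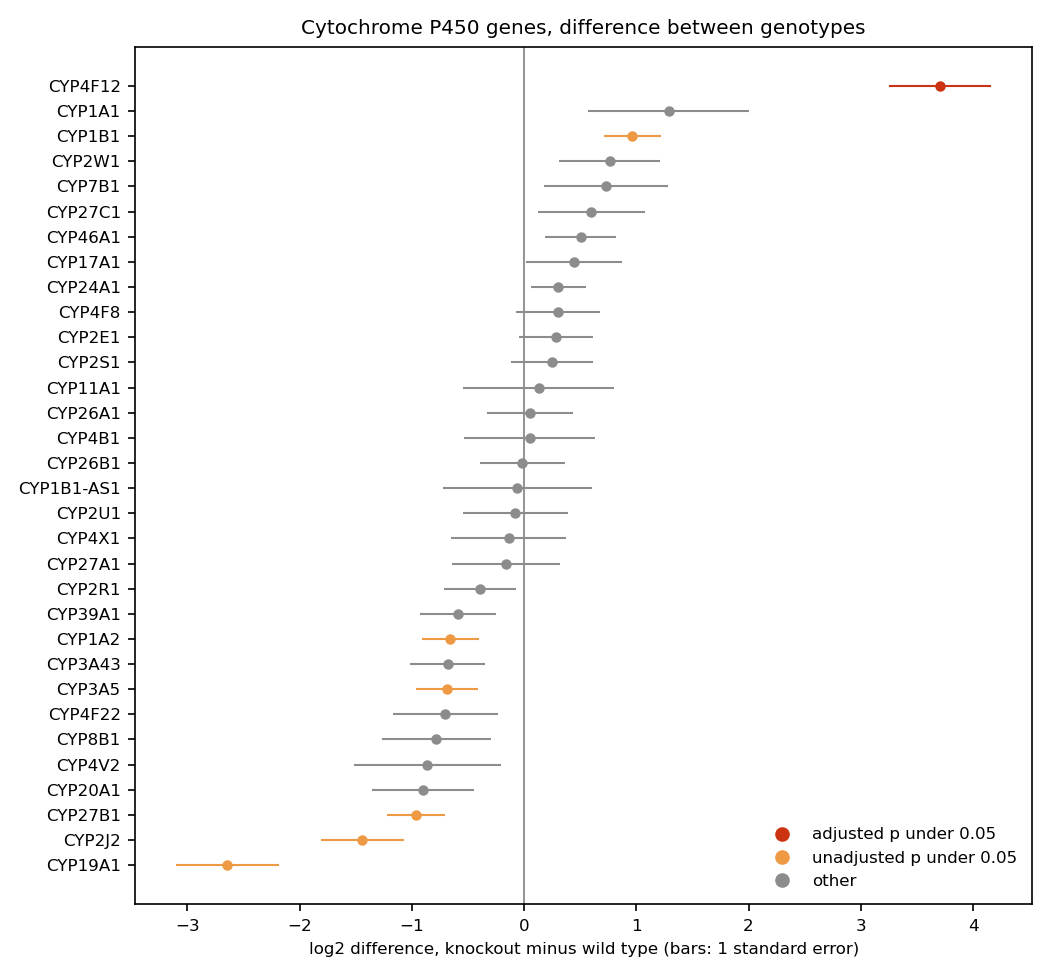
Log2 difference, knockout minus wild type (x axis), with 1 standard error as bars, for each member (y axis). CYP4F12 at 3.71 is the 1 member with an adjusted p under 0.05, CYP19A1 at -2.64 is the lowest on this scale, and the other members lie between -1.44 and 1.29.

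Among the P450 genes of fatty acids and eicosanoids, CYP4F12 rose by 3.71 ± 0.46 on the log2 scale (SE, limma, adjusted p = 0.0257). Its log2 values were 4.09, 2.76 and 2.68 in wild type and 6.52, 7.39 and 6.75 in knockout, in the order of the array numbers, which all such values follow. All 3 knockout values lay above all wild-type values, and the genotype means were 3.18 ± 0.79 and 6.88 ± 0.45 (SD, n = 3 arrays). The difference corresponds to 13.1-fold, and the wild-type values lie near the bottom of the scale, where the size is poorly determined. With values under 4 set to 4 it was 2.85 (adjusted p = 0.00860). The call held without wild-type array 1 (adjusted p = 0.0189) and was lost when any other single array was left out. The adjusted p was then 0.101 and 0.148 without wild-type arrays 2 and 3, and 0.100, 0.0651 and 0.128 without knockout arrays 1, 2 and 3.

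CYP4F12 belongs to a cluster of closely similar CYP4F genes on chromosome 19, whose probes could take up each other's transcripts. Of its measured relatives there, CYP4F8, known from prostaglandin hydroxylation in seminal vesicles, differed by 0.30 ± 0.37. CYP4F22, a fatty acid hydroxylase of the skin barrier, differed by -0.70 ± 0.47. The values of CYP4F8 were 5.75, 6.21 and 6.14 in wild type and 7.05, 5.83 and 6.12 in knockout, and those of CYP4F22 were 6.68, 6.60 and 5.83 against 4.75, 6.36 and 5.89, so the genotypes overlapped for both. A probe set annotated with both CYP4F3 and CYP4F2, and so with no single gene, moved with CYP4F12. It had log2 values of 3.65, 2.04 and 3.77 in wild type and 5.96, 6.73 and 6.81 in knockout. The difference of 3.35 ± 0.52 had an adjusted p of 0.0519 in limma and did not pass. A second probe set with the same pair of symbols differed by 0.05 ± 0.29, with values from 6.43 to 7.04 on all 6 arrays. One that carries CYP4F11 and the unrelated gene IPMK differed by 0.60 ± 0.27 without overlap. Which CYP4F transcripts the CYP4F12 probe set and the CYP4F3 and CYP4F2 probe set took up was not tested. The nearest other measured genes on the 2 sides, PGLYRP2 and RAB8A, looked up after these values had been seen, differed by -0.06 ± 0.43 and -0.03 ± 0.33.

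**Figure D3:**
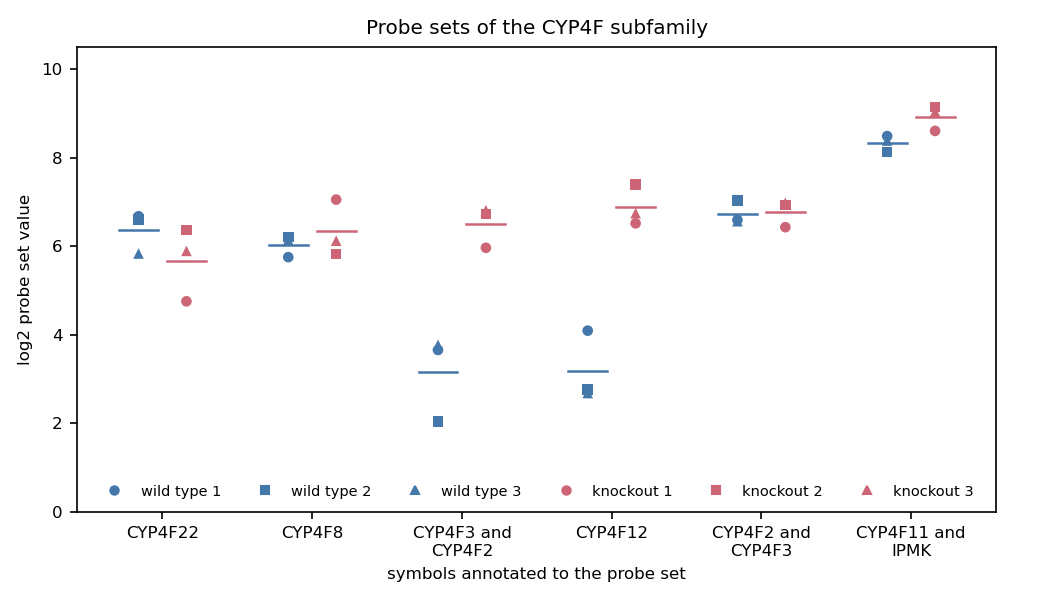
Log2 probe set value (y axis) of the probe sets of the CYP4F subfamily (x axis, by annotated symbols) on 3 wild-type (blue) and 3 knockout (red) arrays, with lines at the genotype means. The CYP4F12 probe set and one of the probe sets shared by CYP4F3 and CYP4F2 lie at 4.09 or less in every wild-type array and at 5.96 or more in every knockout array.

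CYP2J2, an epoxygenase of arachidonic acid, had log2 values of 5.88, 6.17 and 5.83 in wild type and 3.79, 5.02 and 4.75 in knockout. The knockout arrays were all below the wild-type arrays, and the difference was -1.44 ± 0.37 (limma, adjusted p = 0.192), which did not pass. CYP2U1, a hydroxylase of long-chain fatty acids, differed by -0.08 ± 0.46, CYP4B1 by 0.05 ± 0.58 and CYP4V2, a fatty acid hydroxylase of the retina, by -0.86 ± 0.65. The values of CYP4V2 on wild-type arrays 1, 2 and 3 were 7.63, 5.17 and 6.27, a spread wider than the difference. The difference was -0.23 without wild-type array 1, -1.46 without wild-type array 2, and -0.52 when knockout array 3 was left out. Of the 7 measured members of this class, 3 had a positive and 4 a negative difference.

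The wider set of prostanoid and eicosanoid genes had 1 called member of 17, where 0.57% of all probe sets were called. ALOX5, the lipoxygenase that begins leukotriene synthesis, rose by 2.97 ± 0.24 (limma, adjusted p = 0.00493). It was at 5.83, 5.89 and 6.13 in wild type and 8.85, 9.01 and 8.90 in knockout, tight groups without overlap. The call was lost without wild-type array 1 and knockout array 2 together (2.86, adjusted p = 0.0850). In this list 6 of 17 genes (35.3%) were at an unadjusted p under 0.05, 3 of each sign, against 12.2% of all probe sets (6.92% higher and 5.28% lower). The same share of the list, 35.3%, did not overlap, against 19.7%, and the median difference was 0.22, against 0.02. PTGIS and TBXAS1, the prostacyclin and thromboxane synthases, are P450 enzymes by structure although their symbols do not begin with CYP. PTGIS was at 5.63, 5.92 and 5.56 in wild type and 6.47, 6.65 and 7.27 in knockout, without overlap (1.09 ± 0.30, adjusted p = 0.221). TBXAS1 differed by 0.66 ± 0.41 (adjusted p = 0.566).

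Of the 3 measured P450 genes of steroid hormone synthesis, none passed the test. CYP19A1 encodes aromatase, which turns androgens into oestrogens, and had the lowest difference of all members on the deposited scale. Its log2 values were 4.64, 4.55 and 3.23 in wild type and 1.75, 0.97 and 1.77 in knockout. The genotypes did not overlap, and the difference was -2.64 ± 0.46 (limma, adjusted p = 0.0756). All 6 values were under the 95th percentile of the olfactory receptor genes, and with values under 4 set to 4 the difference was -0.40 (adjusted p = 0.568), and CYP2J2 at -1.37 was then the lowest member. CYP17A1, which makes androgen precursors, was at 7.56, 8.53 and 8.24 in wild type and 9.14, 7.82 and 8.71 in knockout, with overlap (0.45 ± 0.43, adjusted p = 0.713). With 1 array left out that difference ran from 0.16, without knockout array 1, to 0.81, without knockout array 2, and it was 0.17 without wild-type array 1. CYP11A1, the enzyme that cleaves the side chain of cholesterol, was at 4.85, 3.25 and 4.91 against 4.41, 3.38 and 5.62 (0.13 ± 0.67). The sign for CYP11A1 turned without wild-type array 2 or knockout array 3 (-0.41 and -0.44). The 6 measured markers of steroid-forming cells had a mean level of 4.88 to 5.95 on the wild-type and 4.85 to 6.42 on the knockout arrays. In this cultured line they are read as genes and not as numbers of such cells, and their relation to the P450 values was not tested.

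The genes next to CYP19A1 on chromosome 15 were examined after its values had been seen. GLDN, its nearest measured neighbour on one side, was lower in the knockout (-3.06 ± 0.32, limma, adjusted p = 0.0149). Its values were 6.88, 6.02 and 6.23 in wild type and 3.07, 3.63 and 3.24 in knockout. GLDN did not exceed the reference on all arrays of either genotype. With values under 4 set to 4 its difference was -2.38 (limma, adjusted p = 0.0154). Without wild-type array 1 and knockout array 2 its adjusted p was 0.0813. TNFAIP8L3, the nearest on the other side, differed by -0.32 ± 0.32, and DMXL2, beyond GLDN, by -0.71 ± 0.37. Both overlapped between genotypes.

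CYP19A1 uses several alternative first exons, each with a promoter of its own, and RefSeq lists 7 start windows for it. The window shown is the one that holds AAGGTCA, a sequence bound by the nuclear receptors NR5A1 and NR5A2, since NR5A2 was the called member of the regulator list. It covers the 250 bases before a start at chr15:51243030-51243279 on the minus strand (RefSeq, GRCh38.p14). Capitals mark AAGGTCA, 131 bases before the start, and TATAAA, 31 bases before it.
CYP19A1: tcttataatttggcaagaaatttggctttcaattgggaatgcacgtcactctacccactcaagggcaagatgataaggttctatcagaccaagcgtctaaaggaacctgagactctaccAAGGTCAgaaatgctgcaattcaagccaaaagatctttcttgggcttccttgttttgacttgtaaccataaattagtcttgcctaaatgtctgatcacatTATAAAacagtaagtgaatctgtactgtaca
On either strand AAGGTCA was found in 3 of 37 windows of members (8.11%), those of CYP19A1, CYP27C1 and CYP4V2, and in 3.44% of all 35116 windows. TATAAA was found in 9 of 37 (24.3%) and in 10.7% of all windows. These are matches of letters, and which start was used in these cells was not tested.

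NR5A2, an orphan nuclear receptor of gut, liver and ovary, is known for regulating bile acid and steroid P450 genes. It was at 5.80, 5.05 and 5.19 in wild type and 7.52, 8.16 and 7.53 in knockout, and rose by 2.39 ± 0.33 (limma, adjusted p = 0.0356). The groups did not overlap. The call was lost when any single array was left out: adjusted p = 0.0631, 0.150 and 0.205 without wild-type arrays 1, 2 and 3, and 0.126, 0.0773 and 0.131 without knockout arrays 1, 2 and 3. Of the P450 genes named as its targets in textbooks, CYP8B1, CYP11A1, CYP17A1 and CYP19A1 were measured, and none passed the test. Of 23 measured regulators, 18 had a positive difference, as did 7184 of all 13139 genes, and the median was 0.40, against 0.07 over all genes. At an unadjusted p under 0.05 there were 6 (26.1%, against 12.2% of all probe sets), 5 of them higher and 1 lower, where all probe sets gave 6.92% and 5.28%. Without overlap there were 8 (34.8%, against 19.7%), 7 of them higher (30.4%, against 12%) and 1 lower (4.35%, against 7.7%). PPARG and AHR, named after their values were seen, did not pass. PPARG, a receptor of fatty acids, was at 8.75, 8.53 and 9.11 against 10.30, 10.58 and 10.06 (1.52 ± 0.28, adjusted p = 0.0927).

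**Figure D4:**
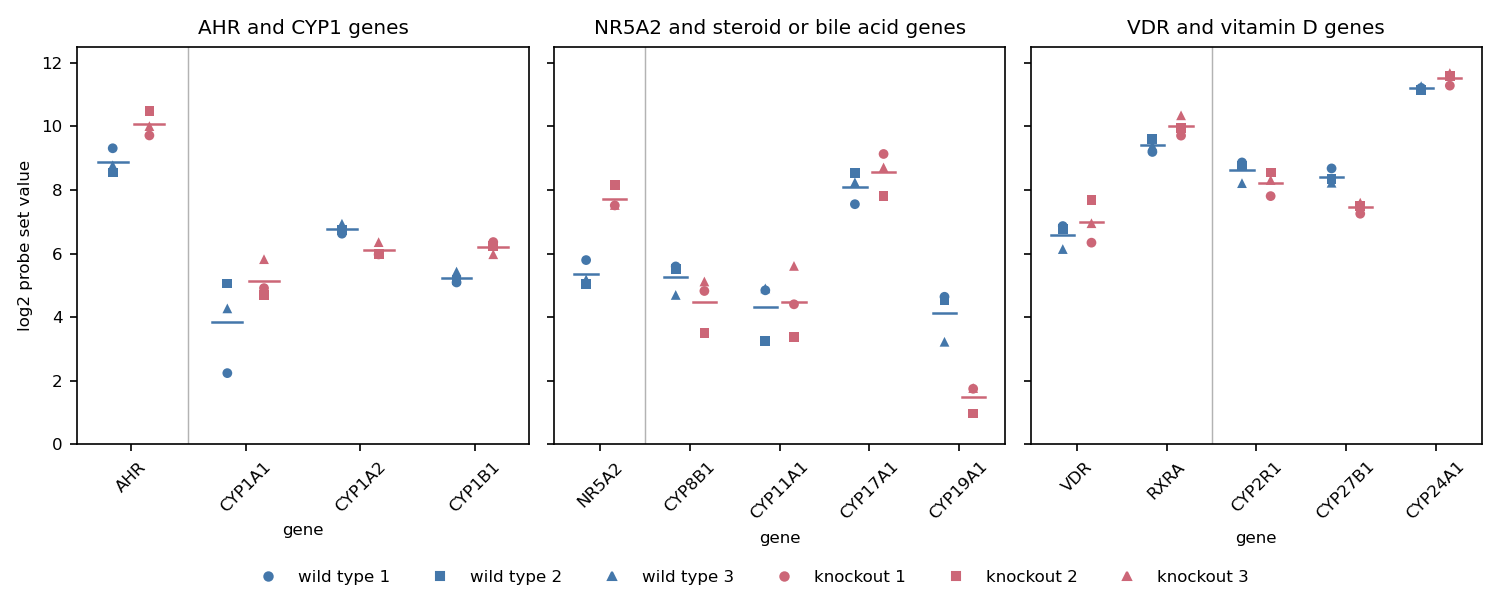
Log2 probe set value (y axis) of regulators (left of the grey line in each panel) and of P450 genes (right of it) on 3 wild-type (blue) and 3 knockout (red) arrays, with lines at the genotype means. NR5A2 is at 5.80 or less in wild type and 7.52 or more in knockout, AHR at 9.32 or less and 9.72 or more, and VDR overlaps between genotypes.

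Among the P450 genes of xenobiotic metabolism, 6 of 18 listed genes had a probe set of their own, and none passed the test. CYP1B1, which oxidises polycyclic aromatic hydrocarbons and oestrogens, was at 5.09, 5.16 and 5.44 in wild type and 6.37, 6.24 and 5.98 in knockout. All knockout values were higher, by 0.96 ± 0.26 on average (limma, adjusted p = 0.203). Its antisense neighbour CYP1B1-AS1 differed by -0.06 ± 0.66, with values of 3.24, 5.43 and 4.82 against 5.24, 3.47 and 4.61. CYP1A1, the classical AHR-induced enzyme, was at 2.24, 5.06 and 4.28 in wild type and 4.92, 4.71 and 5.83 in knockout, with overlap (1.29 ± 0.72, adjusted p = 0.524). That difference was 0.48 without wild-type array 1, 1.89 without wild-type array 2, and 0.70 without wild-type array 1 and knockout array 2. CYP1A2, which metabolises caffeine, went the other way, at 6.63, 6.74 and 6.94 against 5.98, 6.00 and 6.36 without overlap (-0.66 ± 0.26, adjusted p = 0.371).

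AHR, the aryl hydrocarbon receptor that acts on all 3 of these CYP1 genes, was at 9.32, 8.56 and 8.78 in wild type and 9.72, 10.49 and 10.01 in knockout. Its groups did not overlap, and the difference of 1.19 ± 0.33 did not pass (limma, adjusted p = 0.221). The core of the site that AHR binds with its partner ARNT is GCGTG. CYP1A1 and CYP1A2 differed in opposite directions, though neither passed the test and CYP1A1 overlapped between genotypes. No promoter window was available for CYP1B1. Those of CYP1A1 and CYP1A2, neighbours on chromosome 15, are shown because AHR acts on both. Each is the 250 bases before the start (RefSeq, GRCh38.p14), at chr15:74725529-74725778 on the minus strand for CYP1A1 and chr15:74748595-74748844 on the plus strand for CYP1A2. Capitals mark GCGTG and TATAAA on either strand.
CYP1A1: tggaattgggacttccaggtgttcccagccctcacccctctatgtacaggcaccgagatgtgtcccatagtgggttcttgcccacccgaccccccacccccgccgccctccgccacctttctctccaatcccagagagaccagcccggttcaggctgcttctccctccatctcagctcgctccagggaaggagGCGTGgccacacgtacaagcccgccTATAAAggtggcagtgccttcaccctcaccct
CYP1A2: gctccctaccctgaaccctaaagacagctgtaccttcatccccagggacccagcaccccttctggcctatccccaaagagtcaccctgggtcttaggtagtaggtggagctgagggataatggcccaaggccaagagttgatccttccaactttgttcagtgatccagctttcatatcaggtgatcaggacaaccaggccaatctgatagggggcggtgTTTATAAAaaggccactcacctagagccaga
The CYP1A1 window held GCGTG 57 bases and TATAAA 32 bases before the start. In the CYP1A2 window TATAAA was found on both strands, overlapping by 4 bases, and GCGTG was not found among these letters. GCGTG was found in 9 of 37 windows of members (24.3%) and in 32.2% of all windows. These too are matches of letters, and sequence outside the 250 bases was not searched. Whether AHR bound these promoters in these cells was not tested.

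CYP3A5, a drug-metabolising enzyme of liver and gut, was at 5.64, 6.31 and 5.86 in wild type and 5.17, 5.35 and 5.23 in knockout. The knockout arrays were all lower, by 0.68 ± 0.27 on average (limma, adjusted p = 0.383). Its relative CYP3A43 was at 5.29, 5.29 and 5.92 against 5.31, 4.63 and 4.50, with overlap (-0.68 ± 0.34). CYP2E1, which oxidises ethanol, ranged from 5.17 to 6.07 in wild type and from 5.59 to 6.19 in knockout (0.29 ± 0.33). The probe sets shared among CYP2A, CYP2B and CYP2D genes gave no gene of their own, and their differences ran from -0.27 to 0.72, none with an adjusted p under 0.05. Among them, that of CYP2D7 and CYP2D6 was above the reference on all arrays of both genotypes. The 14 hepatocyte markers had a mean level of 5.68 to 5.70 on the wild-type and 5.41 to 5.53 on the knockout arrays. None was called, and 2 of them were lower without overlap (14.3%, against 7.7% of all probe sets). These markers too are read as genes of the line and not as numbers of hepatocytes, and their relation to the P450 values was not tested.

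The P450 genes of vitamin D were above the reference on all 6 arrays. CYP24A1, which inactivates vitamin D hormone, was at 11.21, 11.15 and 11.27 in wild type and 11.28, 11.58 and 11.68 in knockout. The groups did not overlap, though the difference of 0.31 ± 0.25 was little more than its standard error (limma, adjusted p = 0.660). CYP27B1, which makes the active hormone, was at 8.68, 8.34 and 8.23 in wild type and 7.26, 7.50 and 7.60 in knockout. All knockout arrays were lower, by 0.96 ± 0.26 on average (adjusted p = 0.213). CYP2R1, which carries out the step before CYP27B1, was at 8.87, 8.76 and 8.22 against 7.81, 8.55 and 8.32, with overlap (-0.39 ± 0.32). Its other probe set gave -0.18 ± 0.40. The vitamin D receptor gene VDR differed by 0.40 ± 0.41 and its partner RXRA by 0.60 ± 0.28 (adjusted p = 0.727 and 0.457). The VDR difference was 0.06 without knockout array 2, 0.73 without knockout array 1 and 0.18 without wild-type array 3.

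None of the 3 retinoid P450 genes passed the test, and all overlapped between genotypes. CYP26A1, which breaks down retinoic acid, was at 4.59, 5.26 and 4.61 in wild type and 4.30, 4.82 and 5.50 in knockout (0.05 ± 0.38). CYP26B1, which acts on the same substrate, was at 7.14, 7.00 and 6.95 against 6.55, 7.80 and 6.69 (-0.02 ± 0.38). CYP27C1, a retinoid desaturase, was at 5.40, 6.78 and 6.72 against 6.99, 6.28 and 7.42 (0.60 ± 0.48). The difference for CYP27C1 was 0.15 without wild-type array 1 and 0.34 when knockout array 3 was left out. Of 16 measured genes that handle vitamin D or retinoids, 4 were at an unadjusted p under 0.05 (25%, against 12.2% of all probe sets), 2 of each sign, with a median of 0.08 and none called. Without overlap there were 5 (31.2%, against 19.7%). ALDH1A3, which makes retinoic acid, was at 10.71, 10.69 and 10.62 in wild type and 11.81, 12.15 and 12.15 in knockout (1.36 ± 0.24, adjusted p = 0.0843). LRAT, which stores retinol as esters, was at 7.78, 6.89 and 7.06 against 4.83, 5.81 and 5.75 (-1.78 ± 0.39, adjusted p = 0.135). CUBN, an uptake receptor, differed by -1.92 ± 0.38 (adjusted p = 0.108). For each of these 3 genes the genotypes did not overlap.

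Of the 5 measured P450 genes of cholesterol and bile acids, none was at an unadjusted p under 0.05 and all overlapped between genotypes. CYP7B1 was at 7.24, 8.86 and 9.02 in wild type and 9.21, 8.45 and 9.66 in knockout (0.73 ± 0.55, limma, adjusted p = 0.639), with its lowest value on wild-type array 1. Without that array the difference was 0.17, and when knockout array 3 was left out it was 0.46. CYP8B1, which sets the ratio of the main bile acids, was at 5.60, 5.51 and 4.70 against 4.83, 3.52 and 5.12 (-0.78 ± 0.48), and its difference was -0.29 without knockout array 2. CYP27A1, a mitochondrial sterol hydroxylase, differed by -0.16 ± 0.48 and CYP39A1, an oxysterol hydroxylase, by -0.59 ± 0.34. CYP46A1, the cholesterol hydroxylase of neurons, differed by 0.51 ± 0.32. The probe set of CYP51A1, the sterol demethylase, also carries LRRD1 and was no member (0.25 ± 0.28). Around it, 3 of 15 sterol synthesis genes were at an unadjusted p under 0.05 (20%, against 12.2% of all probe sets), with a median of -0.01 and none called. Without overlap there were 2 (13.3%, against 19.7%). The lower ones were IDI1 (-1.06 ± 0.41) and SQLE (-1.13 ± 0.44), and the higher one was TM7SF2 (0.77 ± 0.25).

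None of the 5 members of little known function was at an unadjusted p under 0.05, and all overlapped between genotypes. The antisense RNA gene CYP1B1-AS1, described above, is counted among these 5 and is no P450 enzyme. CYP2W1, a P450 found in colorectal tumours, was at 6.84, 6.77 and 7.76 in wild type and 8.0, 7.14 and 8.51 in knockout (0.76 ± 0.45, limma, adjusted p = 0.545). CYP2S1, which is expressed in epithelia, was at 7.83, 7.34 and 7.28 against 7.78, 8.30 and 7.12 (0.25 ± 0.37), and its sign turned without knockout array 2 (-0.03). CYP20A1 was at 7.91, 6.76 and 7.67 against 6.16, 7.32 and 6.16 (-0.90 ± 0.45). In CYP20A1 knockout array 2 lay within the wild type. CYP4X1 differed by -0.14 ± 0.51.

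Among the redox partners of the P450 enzymes 5 of 9 were above the reference in wild type and 6 in knockout. Of all genes 48.7% and 60.1% were above it. None of the 9 partners was called. The reductase gene POR was at 10.43, 10.68 and 10.62 in wild type and 10.55, 11.02 and 11.07 in knockout (0.30 ± 0.27, limma, adjusted p = 0.693). At an unadjusted p under 0.05 there were 0 of the 9, against 12.2% of all probe sets, and the median was -0.32. The genotypes did not overlap for 4 of them (44.4%, against 19.7%), 2 higher and 2 lower, where all probe sets gave 12% and 7.7%. CYB5B, the cytochrome b5 of the outer mitochondrial membrane, had the smallest p (-0.53 ± 0.24, adjusted p = 0.439), followed by the reductases CYB5R3 (-0.57 ± 0.27) and CYB5R2 (-0.57 ± 0.30). Of 11 genes of haem synthesis and breakdown, 2 were at an unadjusted p under 0.05 (18.2%, against 12.2%), both lower, where 5.28% of all probe sets were. The median was -0.03, and 4 did not overlap (36.4%, against 19.7%), 1 higher and 3 lower, against 12% and 7.7%. UROD, an enzyme of haem synthesis, was at 6.97, 6.67 and 6.67 against 6.03, 5.97 and 5.68 (-0.88 ± 0.25, adjusted p = 0.236). ALAS1, which sets the rate of haem synthesis outside erythroid cells, was at 9.30, 8.98 and 9.56 against 8.32, 8.90 and 8.33 (-0.76 ± 0.30, adjusted p = 0.370). For both the groups did not overlap. BLVRA, which reduces biliverdin, differed by -0.77 ± 0.33. Of 22 conjugating enzymes and transporters, 6 were at an unadjusted p under 0.05 (27.3%, against 12.2%), 5 of them higher and 1 lower, where all probe sets gave 6.92% and 5.28%. The median was -0.04, none was called, and 7 did not overlap (31.8%, against 19.7%). The smallest p-values belonged to the glutathione transferase genes GSTA4 (1.44 ± 0.39) and GSTM3 (1.79 ± 0.68) and to UGT8 (-1.16 ± 0.38), a galactosyltransferase.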

How the data were processed

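The deposited values are log2 probe set values on 6 Affymetrix whole-transcript arrays, made by the authors from rRNA-depleted total RNA, per the labels' protocols. RMA, R 2.11.1 and the build hg18 appear in the submitters' processing notes, without order or role. Array distributions differ, so the values are not quantile normalized across arrays. The log2 scale was read from their range. Gene names came from the annotation of the array platform, in which 13301 probe sets had 1 symbol, 2044 several and 4113 none. Names were checked through gene identifiers against RefSeq (GRCh38.p14), which held 13280 of them and all 32 members. Promoter windows were matched by symbol for 25 members.

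Genotypes were compared with limma 3.58.1 (R 4.3.3, lmFit and eBayes) over all 19458 probe sets without filter or block. P-values are two-sided, with Benjamini-Hochberg adjustment across the whole table and calls at 0.05. The probe set of highest mean stood for a gene. Members and lists were chosen with earlier results of these data known. Array values were given for members called, at an unadjusted p under 0.05, without overlap at a difference of at least 1, or among the 2 largest of a class above the reference, and for further members. From lists the called genes were named, otherwise up to 3 of smallest p. AHR, PPARG, PTGIS, TBXAS1, POR, VDR, RXRA, the individual cell markers and the neighbours on the chromosome were chosen with their values in view. Simulated data were used to test the code. The alternatives were median centring, quantile normalization, a floor of 4, a filter on the dimmest 30% of probe sets, limma's variance trend, no moderation (the single-factor test of the series design), the replicate block, leaving out arrays and the mean of probe sets. The number of arrays limits the precision.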

Additional observations from a re-analysis of the deposited data

How the results depend on the processing

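CYP4F12 kept its direction in all 13 alternatives that could be run for it, from 2.85 to 4.16, and passed in 5 of them. The number of called P450 genes, 1 as reported, was 0 without the dimmest 30% of probe sets, without moderation, with the replicate block and without both arrays of highest median, and 0 to 1 with any 1 array left out. In those 4 settings with 0 calls in limma, 2, 7, 5 and 7 members were at an unadjusted p under 0.05. The shares over all probe sets at that threshold under these settings are not given. The filter on dim probe sets removed 20 of the 32 members (62.5%), CYP4F12 among them. Without moderation its adjusted p was 0.110. Called genes over the partner, regulator and pathway lists, 2 as reported, numbered 5 without the dimmest probe sets, 1 without moderation, 0 with the replicate block, 10 with a variance trend, 0 without both arrays of highest median and 1 to 2 with any 1 array left out. Over all probe sets the 111 calls became 184 without the dimmest probe sets, 169 with a floor of 4, 175 with median centring, 174 with quantile normalization, 396 with a variance trend, 7 without both arrays of highest median and 24 to 63 with any 1 array left out. With the replicate block there were 3. Same-numbered arrays did not deviate together (correlations of -0.238, -0.427 and 0.058 for numbers 1, 2 and 3), and not every array correlated best with its own number, so the numbers are not taken as pairs. Members above the reference numbered 18 in wild type and 17 in knockout at the 75th percentile. They numbered 5 to 11 in wild type and 9 to 10 in knockout with any 1 array left out, counts for which no share of all genes is given.

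Members with small differences changed sign in some alternatives. CYP1B1-AS1 was at 0.09 with quantile normalization, and without both arrays of highest median CYP26A1 was at -0.03, CYP27A1 at 0.21 and CYP2E1 at -0.08. With any 1 array left out the range was -0.44 to 0.68 for CYP11A1, -0.69 to 0.42 for CYP1B1-AS1, -0.26 to 0.34 for CYP26A1, -0.41 to 0.22 for CYP26B1, -0.54 to 0.14 for CYP27A1, -0.03 to 0.56 for CYP2S1, -0.46 to 0.33 for CYP2U1, -0.33 to 0.68 for CYP4B1, -0.06 to 0.55 for CYP4F8 and -0.54 to 0.24 for CYP4X1. Of the 757 differences computed under alternatives for members and named list genes, 26 turned, 19 lost a call, 10 gained one, for PPARG, ALDH1A3, AHR, CUBN, LRAT, CYB5B and TM7SF2, and 702 did neither.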
